A study of Mus musculus with 18 samples.

Results

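The levels of 10 germline genes were followed in RNA-seq of female mouse ES cells with and without the H3K27 demethylase gene *Kdm6a*. They were taken by symbol from a fixed list, *Dazl*, *Ddx4*, *Stra8*, *Sycp3*, *Mael*, *Asz1*, *Stk31*, *Taf7l*, *Tex101* and *Slc25a31*, and all 10 were found among the 24346 genes of each of the 18 libraries. The list was chosen with earlier results of these data known. These genes serve germ cells, meiosis or sperm, and in the body's other cells their CpG-rich promoters are methylated and silent. In early embryos the Polycomb complex PRC1.6, whose subunits MGA, MAX and E2F6 bind E-box and E2F letters in DNA, first keeps many of them low, and DNMT3 enzymes then add the DNA methylation that holds them off. In ES cells the silencing of this class is incomplete, and *Dazl* RNA among others is found there. DNA methylation was not measured in these libraries, so the genes are called germline genes here and not methylated genes.

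The study asked how loss of *Kdm6a* affects X inactivation and gene expression during differentiation. *Tsix*-stop cells are a female ES line from a cross with *cast* (*Mus castaneus*) that carries a transcriptional stop in *Tsix* on the X chromosome not from *cast*, which all *Tsix*-stop groups share and which makes that X the inactive copy. E8 cells are a hybrid female ES line of C57BL/6J and *cast* with no such stop and largely random X inactivation. ES cells were grown in serum and LIF on feeder fibroblasts, then kept as suspended embryoid bodies (EBs) without LIF for 7 days and plated until D15. The *Tsix*-stop groups were wt, *Kdm6a* KO and CRISPR control at D0 (ES cells) and D15 (EBs), with 2, 2 and 1 libraries on each day. The labels number the KO libraries 1 and 2 and do not say which clone each is. Their KO removes exons within *Kdm6a* on both X chromosomes, and according to the methods the 2 KO libraries of a day come from 2 clones. The CRISPR control is a single clone that went through the editing without a deletion. The E8 groups were wt and *Kdm6a* KO at D7 and D15 with 2 libraries each, and the methods describe 1 homozygous clone without the *Kdm6a* promoter. E8 libraries of D7 and D15 are not described in the methods, and nothing says that the 2 E8 libraries of a group came from separate cultures, so p-values in E8 may measure technical spread.

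The *Tsix*-stop libraries held between 51091152 and 68796179 counts. At this depth 3 counts corresponded to 0.0436 to 0.0587 CPM (counts scaled to library size), and each of the 10 genes had at least 15 counts in every *Tsix*-stop library. E8 values were deposited as TPM (scaled to gene length and library size), so their depth is unknown. *Kdm6a* in E8 was at 46.7 to 47.8 TPM in the 4 wt libraries and at 0.00578 to 0.0319 TPM in the 4 KO libraries. In *Tsix*-stop cells *Kdm6a* was at 55.6 and 21.2 TPM in KO replicates 1 and 2 at D0 and at 41.7 and 12.8 TPM at D15, against 48.9 to 85.7 TPM in the 4 wt libraries. It was not called on either day (log2 fold change −0.97 and −1.03, FDR 0.300 and 0.188 by edgeR), and counts per gene do not show the deleted exons. The CRISPR control libraries carry a deposited name that calls them KO, so their label is in doubt, and they are described apart from wt and KO. Their *Kdm6a* was at 53.7 TPM at D0 and 43.6 TPM at D15, near KO replicate 1 on both days. The lowest wt library was at 54.2 TPM at D0 and 48.9 TPM at D15, little above the control, so this level does not settle the label.

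The promoters of the 10 genes held more CpG dinucleotides, the letters that DNMT enzymes methylate, than the median promoter. In RefSeq promoter windows on GRCm38.p6, from 250 bases before to 50 bases after the start of a transcript, 11 windows belong to the 10 genes, with a pair for *Stk31*. The median window of the 11 held 22 CpG and that of all 32841 windows of the table held 7. The observed count over that expected from base composition had a median of 0.78 for the germline genes and 0.38 for all windows. *Ddx4* had the highest number with 38 CpG, more than 95% of all windows, and *Stra8* the lowest with 10, more than 56.5% of them. The letters CACGTG (an E-box, the same on both strands) occur in windows of 6 of the 10 genes, *Ddx4*, *Sycp3*, *Mael*, *Stk31*, *Taf7l* and *Slc25a31*, and in windows of 8.09% of all genes in the table. The E2F letters TCCCGC, or GCGGGA on the other strand, occur in 4 of the 11 windows, those of *Ddx4*, *Sycp3*, *Mael* and *Slc25a31*, against 20% of all windows. All 4 of these windows hold the E-box too, and 1.99% of all windows hold both. *Dazl*, *Stra8*, *Asz1* and *Tex101* have neither motif in the window, which says only that these letters are not there.

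Promoter windows of 6 genes are printed, for genes whose levels are described most closely, on GRCm38.p6 from 5′ to 3′ along the transcribed strand, with E-box and E2F letters in capitals. *Sycp3* and *Ddx4* hold both motifs, *Stk31* and *Taf7l* an E-box alone, and *Stra8* and *Dazl* neither.
*Sycp3*, chr10:88459337-88459636, plus strand: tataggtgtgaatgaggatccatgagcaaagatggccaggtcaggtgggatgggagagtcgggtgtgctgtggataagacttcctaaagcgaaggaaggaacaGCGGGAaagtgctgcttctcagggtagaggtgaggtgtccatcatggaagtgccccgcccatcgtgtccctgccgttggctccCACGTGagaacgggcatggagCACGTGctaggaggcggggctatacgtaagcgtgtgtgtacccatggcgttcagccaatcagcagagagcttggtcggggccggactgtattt
*Ddx4*, chr13:112652261-112652560, minus strand: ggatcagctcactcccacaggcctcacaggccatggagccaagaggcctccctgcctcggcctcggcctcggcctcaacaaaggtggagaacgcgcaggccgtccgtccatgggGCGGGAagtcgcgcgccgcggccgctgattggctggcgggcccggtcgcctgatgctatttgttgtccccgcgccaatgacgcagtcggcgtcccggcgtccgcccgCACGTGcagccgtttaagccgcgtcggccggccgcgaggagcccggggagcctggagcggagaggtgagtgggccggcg
*Stk31*, chr6:49395289-49395588, plus strand: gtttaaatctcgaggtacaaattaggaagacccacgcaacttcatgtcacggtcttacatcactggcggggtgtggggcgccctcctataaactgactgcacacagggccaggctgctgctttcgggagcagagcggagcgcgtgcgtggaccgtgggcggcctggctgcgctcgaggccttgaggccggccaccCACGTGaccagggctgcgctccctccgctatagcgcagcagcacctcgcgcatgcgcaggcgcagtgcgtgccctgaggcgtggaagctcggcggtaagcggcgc
*Taf7l*, chrX:134476441-134476740, minus strand: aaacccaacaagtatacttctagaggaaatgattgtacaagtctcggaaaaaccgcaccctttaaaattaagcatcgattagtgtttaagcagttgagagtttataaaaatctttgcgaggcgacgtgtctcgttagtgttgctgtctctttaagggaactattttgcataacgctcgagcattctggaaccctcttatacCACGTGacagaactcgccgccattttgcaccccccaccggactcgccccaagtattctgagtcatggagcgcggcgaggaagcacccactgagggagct
*Stra8*, chr6:34920698-34920997, plus strand: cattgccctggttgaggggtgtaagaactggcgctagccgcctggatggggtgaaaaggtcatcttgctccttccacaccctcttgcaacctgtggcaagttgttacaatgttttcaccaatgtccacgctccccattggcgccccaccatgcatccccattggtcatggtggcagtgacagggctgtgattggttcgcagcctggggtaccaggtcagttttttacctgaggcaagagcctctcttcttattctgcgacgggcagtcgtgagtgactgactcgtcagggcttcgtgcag
*Dazl*, chr17:50293571-50293870, minus strand: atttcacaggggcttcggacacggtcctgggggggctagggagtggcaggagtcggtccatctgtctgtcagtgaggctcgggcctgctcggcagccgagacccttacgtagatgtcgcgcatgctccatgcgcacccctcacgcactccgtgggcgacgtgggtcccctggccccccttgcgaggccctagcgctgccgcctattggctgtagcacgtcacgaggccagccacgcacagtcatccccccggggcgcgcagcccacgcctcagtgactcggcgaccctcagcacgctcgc
In each window the last 50 bases are transcribed. The E-boxes begin 64 and 43 bases before the start of transcription in *Sycp3*, 29 bases before it in *Ddx4*, 49 in *Taf7l* and 55 in the *Stk31* window shown.

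The genes lie on 8 chromosomes, with *Stra8*, *Asz1* and *Stk31* on chromosome 6 and *Taf7l* on the X chromosome. On GRCm38 (GENCODE annotation) the protein-coding genes whose promoters are not printed lie at chr1:166201201-166238747 (*Mael*), chr6:18050964-18109061 (*Asz1*), chr7:24668007-24676675 (*Tex101*) and chr3:40708855-40726096 (*Slc25a31*). In *Tsix*-stop cells 7 of the 10 passed the filter of 2.5 CPM in at least 2 of the 8 wt and KO libraries and were among the 13121 genes tested with edgeR's quasi-likelihood test. In E8 the same 7 had at least 2.5 TPM in at least 2 libraries and were among 12452 genes tested with limma on log2(TPM + 1). *Asz1*, *Tex101* and *Slc25a31* were below both filters and are given by their values. Called genes had a Benjamini-Hochberg adjusted p (FDR) of 0.1 or less over all genes tested and at least 2-fold change. With 2 libraries against 2, an exact permutation test of a single gene cannot go below a p of 0.333, so none is given. Levels are compared between genes only in TPM, which allows for gene length.

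In undifferentiated *Tsix*-stop cells the germline genes were not silent, and KO differed from wt in both directions. At D0 *Taf7l* was higher and *Stra8* and *Stk31* were lower in KO, which is 1 of 7 tested genes called higher (3.09% of all genes tested) and 2 called lower (4.98% of all). The KO libraries were all above both wt libraries for 3 of the 10 genes (27.9% of all genes tested), *Dazl*, *Taf7l* and *Slc25a31*, and all below for another 3 (29.3%), *Stra8*, *Sycp3* and *Stk31*. The median log2 fold change of the 7 was −0.25 and that of all genes tested was −0.0047.

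*Stra8* is switched on by retinoic acid in germ cells and drives their entry into meiosis. It was at 25.3 and 19.0 TPM in the wt libraries at D0 and at 3.08 and 1.87 TPM in the KO libraries. At D15 it was at 21.4 and 19.8 TPM in wt and at 4.70 and 4.0 TPM in KO. The groups did not overlap on either day. The KO libraries were at 0.919 to 2.26 CPM, so *Stra8* passed the filter of 2.5 CPM only through its wt libraries. The log2 fold change of KO over wt was −3.28 ± 0.31 (SE) at D0, with an edgeR FDR of 0.00116, and −2.23 ± 0.30 at D15, with an FDR of 0.00133, and *Stra8* was the only one of the 7 called in the same direction on both days. Between days *Stra8* was not called in wt (log2 fold change −0.30) or in KO (0.75), but without KO D0 replicate 1 the value in KO was 1.19 and was called (FDR 0.0227 by edgeR). The interaction of KO and day was 1.05, at an FDR of 0.0985 by edgeR, and was no longer called when any of 5 of the 8 libraries was left out.

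*Sycp3* encodes a component of the synaptonemal complex that pairs homologous chromosomes in meiosis. At D0 it was at 15.3 and 11.2 TPM in wt and at 9.11 and 9.01 TPM in KO. At D15 it stood at 38.3 and 21.4 TPM in wt and at 98.8 and 86.4 TPM in KO. The order of the groups therefore turned over between the days, with KO lowest at D0 and highest at D15. *Sycp3* was not called at D0 (log2 fold change −0.67, FDR 0.164 by edgeR) and was called higher in KO at D15 (1.66, standard error 0.28, FDR 0.00346). From D0 to D15 it rose 9.81-fold in KO, whereas the 1.95-fold difference in wt did not reach the 2-fold threshold, and the interaction of KO and day was 2.33 (standard error 0.40, FDR 0.00630 by edgeR).

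*Ddx4* encodes the VASA RNA helicase of germ granules. It was at 6.59 and 11.2 TPM in wt and at 9.08 and 7.07 TPM in KO at D0, with overlapping groups. At D15 it was at 11.5 and 9.73 TPM in wt and at 23.6 and 20.2 TPM in KO, and the groups no longer overlapped. At D15 it was higher by 1.06 ± 0.26 (log2, SE) with an edgeR FDR of 0.0161, and the interaction was 1.30 (FDR 0.0368). The D15 call rested on single libraries, since without wt replicate 2 it was 0.95 at an FDR of 0.116 and without KO replicate 1 it was 0.93, under the 2-fold threshold. *Ddx4* rose from D0 to D15 in KO (1.38, FDR 0.00237 by edgeR) and was 0.075 in wt, not called.

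*Dazl* encodes an RNA-binding protein that promotes translation of germ cell mRNAs. At D0 it was at 84.9 and 38.0 TPM in wt and at 110 and 96.1 TPM in KO, the highest level of the 10 genes in every wt and KO library of that day except wt replicate 2, where *Stk31* stood at 40.7 TPM. At D15 it was at 28.7 and 19.8 TPM in wt and at 31.4 and 33.3 TPM in KO. The wt libraries at D0 stood far from each other, and KO over wt was 0.61 at D0 and 0.43 at D15, neither called. Without wt replicate 1 the D0 value was 1.36 and was called at an FDR of 0.0242 by edgeR. From D0 to D15 *Dazl* fell by 1.55 in wt (FDR 0.00354 by edgeR) and fell by 1.73 in KO (FDR 0.00285). Without wt D0 replicate 1 the value in wt was −0.81, under the threshold.

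*Mael*, *Stk31* and *Asz1* belong to the piRNA pathway, which silences transposons in germ cells. *Mael* was at 6.36 and 5.58 TPM in wt and at 5.89 and 4.98 TPM in KO at D0, and at 13.8 and 14.8 TPM in wt and at 22.3 and 18.4 TPM in KO at D15. It rose with differentiation in both genotypes, by 1.07 on the log2 scale in wt (FDR 0.00341 by edgeR) and by 1.84 in KO (FDR 0.000316). KO over wt at D15 was 0.52 with an FDR of 0.112, and was not called.

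*Stk31*, a Tudor domain kinase-like protein of male germ cells, was at 55.9 and 40.7 TPM in wt and at 22.7 and 12.5 TPM in KO at D0. At D15 it was at 5.37 and 4.08 TPM in wt and at 5.90 and 7.17 TPM in KO. The lower level in KO at D0 was called (−1.58, standard error 0.30, FDR 0.0140 by edgeR) and the value of 0.48 at D15 was not. *Stk31* fell by 3.55 from D0 to D15 in wt, in KO it fell by 1.49, and the interaction was 2.06 (standard error 0.44, FDR 0.0133 by edgeR). *Asz1*, a germ granule protein, was between 0.338 and 1.51 TPM in the 8 wt and KO libraries, on 15 to 71 counts each, and its groups overlapped on both days.

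*Taf7l* is an X-linked paralog of the general transcription factor gene *Taf7* and acts in male germ cells. It was at 2.57 and 2.35 TPM in wt and at 10.6 and 5.22 TPM in KO at D0, with every KO library above every wt library. It differed by 1.57 ± 0.36 (log2, SE) with an edgeR FDR of 0.0249, and the call was lost without wt replicate 2 (FDR 0.103) or without KO replicate 1 (0.95, FDR 0.105). At D15 it was at 9.49 and 6.94 TPM in wt and at 14.2 and 13.3 TPM in KO, and the difference of 0.76 was not called (FDR 0.114). *Taf7l* rose from D0 to D15 in wt (1.54, FDR 0.00430 by edgeR), where its level overlapped that of KO at D0.

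*Tex101*, a sperm surface protein needed for male fertility, and *Slc25a31*, the ADP/ATP carrier of sperm mitochondria, were low throughout. *Tex101* lay between 1.55 and 5.92 TPM in the 8 wt and KO libraries, with overlapping groups on both days. *Slc25a31* was at 1.5 and 1.78 TPM in wt and at 2.16 and 2.17 TPM in KO at D0, and at 1.32 and 1.12 TPM in wt and at 2.13 and 2.46 TPM in KO at D15. The KO libraries were above wt on both days. Fitted without the filter on low counts, *Slc25a31* had a log2 fold change of 0.98 at D15 (FDR 0.0416 by edgeR), just under 2-fold, and 0.32 at D0.

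**Figure D1:**
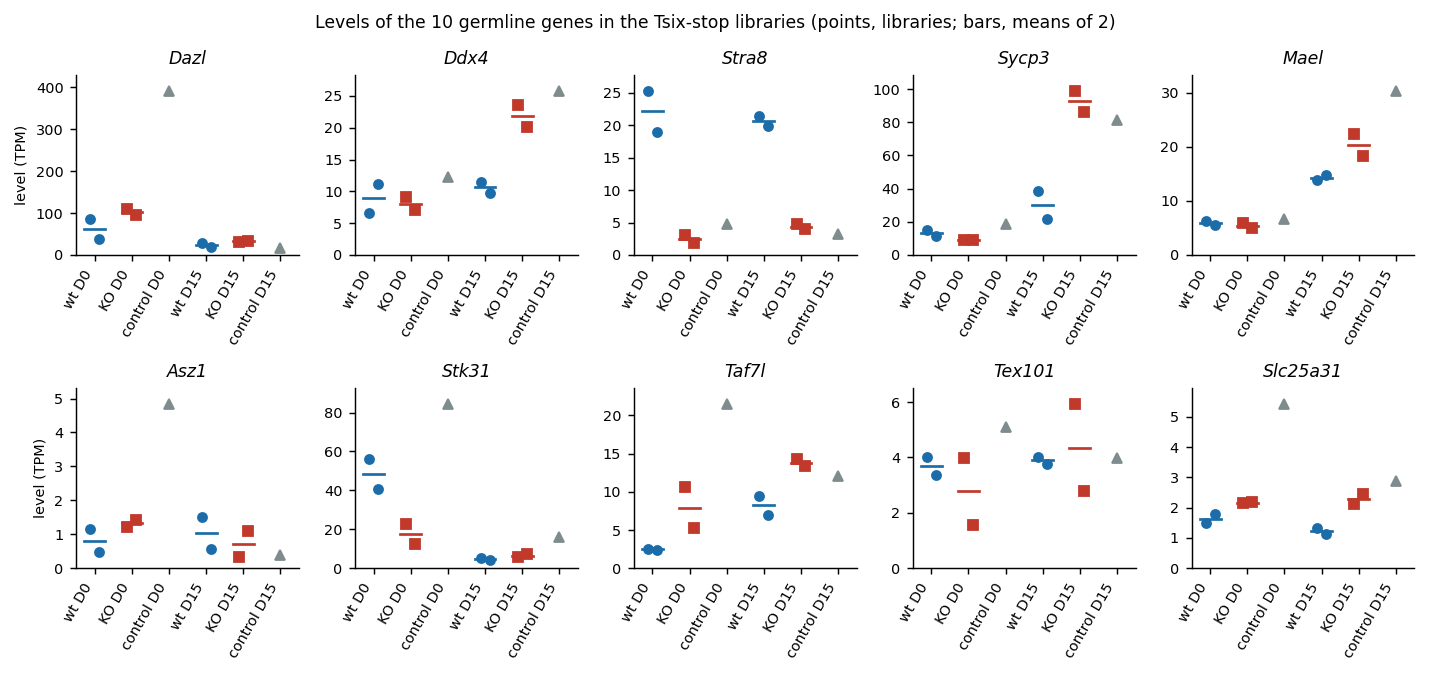
Level in TPM (linear axis from 0, own scale per gene) of each of the 10 genes in the 10 *Tsix*-stop libraries by group, with points for libraries and bars for means of 2. *Stra8* in KO stays below 5 TPM on both days, *Sycp3* reaches 98.8 and 86.4 TPM in KO at D15, and the CRISPR control lies at 391 TPM for *Dazl* at D0.

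At D15 the balance in *Tsix*-stop cells was toward higher levels in KO. Of the 7 genes tested, 2 were called higher (3.89% of all genes tested) and 1 lower (11% of all), and 6 of the 7 had a positive log2 fold change. Both KO libraries were above both wt libraries for 7 of the 10 genes (37.2% of all genes tested), and below for *Stra8* alone (37.2% of all). *Asz1* and *Tex101* overlapped. The median of the 7 was 0.52 and that of all genes tested was 0.0086. In wt, 2 of the 7 rose with differentiation (23.8% of all genes tested), *Mael* and *Taf7l*, and 2 fell (14.2%), *Dazl* and *Stk31*. In KO, *Sycp3*, *Mael* and *Ddx4* rose (19.7% of all) and *Dazl* and *Stk31* fell (7.87%). The interaction of KO and day was called for 4 of the 7, all positive (6.74% of all genes tested were called positive and 10.4% negative), which are *Sycp3*, *Stk31*, *Ddx4* and *Stra8*.

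Marker genes of other cell types, in lists also chosen with earlier results known, moved with these groups. The summed level of 11 pluripotency markers was 9752 and 10629 TPM in wt at D15 and 15839 and 12639 TPM in KO. *Dppa5a* made up 42.5% to 71.6% of this sum in the 18 libraries, and without it the other 10 markers summed to 4330 and 4807 TPM in wt and 8251 and 6832 TPM in KO. For 8 fibroblast markers it was 2985 and 2649 TPM in wt against 209 and 264 TPM in KO, and for 7 visceral endoderm markers 590 and 698 TPM against 45 and 26.3 TPM. Of the fibroblast markers 7 of 8 were called lower in KO at D15 and of the visceral endoderm markers 6 of 7, and all 5 cardiac muscle markers tested were called lower too (11% of all genes tested). Of the 11 pluripotency markers 3 were called higher (3.89% of all). At D0 the pluripotency sum was 14660 and 14086 TPM in wt and 16681 and 15284 TPM in KO. Fibroblast markers, which the feeder cells also express, summed to 21.5 and 17.7 TPM in wt and to 4.22 and 4.50 TPM in KO. *Thy1* alone gave 18.51 and 11.05 TPM of this sum in wt and 2.51 and 2.56 TPM in KO. Of the 8 fibroblast markers 2, *Thy1* and *Col1a1*, were called lower in KO at D0. The D0 sum thus rests largely on *Thy1*, and the content of feeder cells was not tested. The part of the cell types in the germline gene levels was not tested, and in bulk libraries fewer cells of a type and less RNA per cell cannot be told apart.

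The CRISPR control differed from wt for several germline genes, with no replicate on either day. *Dazl* was at 391 TPM at D0, with a CPM 6.01 times the wt mean and 3.92 times the KO mean, and at 16.6 TPM at D15, below all other *Tsix*-stop libraries. *Taf7l* was at 21.5 TPM at D0, 8.31 times the wt mean in CPM. *Asz1* reached 4.83 TPM there and *Slc25a31* 5.41 TPM, 5.66 and 3.16 times the wt mean. In CPM the control was above every wt and KO library of D0 for 8 of the 10 genes.

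For *Stra8* the control lay nearer KO on both days, and for *Sycp3* at D15. *Stra8* was at 4.71 TPM at D0 and 3.29 TPM at D15, *Sycp3* at 18.7 and 81.1 TPM, *Ddx4* at 12.2 and 25.8 TPM, and *Mael* at 6.55 and 30.3 TPM. By distance on the log2 scale between CPM values, the control was nearer the KO mean than the wt mean for 5 of the 10 genes at D0 and for 8 at D15. Fibroblast and visceral endoderm markers in the control at D15 were at 114 and 26.7 TPM, within or below the range of the KO libraries. The pluripotency sum of 9230 TPM was below every wt and KO library of D15, but without *Dppa5a* it was 4966 TPM, above both wt libraries and below both KO libraries. The median non-*cast* share of X-linked genes in the control at D15 was 32.6%, against 29.0% and 31.4% in wt and 45.6% and 40.9% in KO. When the control libraries were added to wt, none of the 7 genes was called between KO and wt at D0 or D15 by edgeR, against 3 and 3 called without the control. An unadjusted p under 0.05 by edgeR was found for 2 and 1 of the 7, and for 1575 and 4120 of all 13192 genes tested. Called genes among all fell to 20 at D0 and 1115 at D15 from 1059 and 1948. Several log2 fold changes stayed past 2-fold in that setting with larger standard errors, with *Stra8* at −2.83 ± 0.91 and *Stk31* at −1.86 ± 0.57 at D0 and *Stra8* at −1.75 ± 0.86 and *Sycp3* at 1.02 ± 0.44 at D15 (SE).

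In E8 the same genes were lower in KO. At D7 all 10 were lower in both KO libraries than in both wt libraries, where 37.8% of all genes tested were lower in this way and 52.6% higher. Of the 7 tested, 4 were called lower (6.18% of all) and none higher, where 11.4% of all genes were called higher. The median of the 7 was −1.82 and that of all genes tested was 0.10, on the log2(TPM + 1) scale, which understates changes of low genes.

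*Dazl* and *Stra8* had the largest differences in E8. *Dazl* was at 17.3 and 19.8 TPM in wt and at 2.28 and 3.14 TPM in KO at D7, and at 14.4 and 13.1 TPM in wt and at 4.87 and 5.45 TPM in KO at D15. *Stra8* was at 7.14 and 7.86 TPM in wt and at 0.511 and 0.948 TPM in KO at D7, and at 8.5 and 8.23 TPM in wt and at 2.28 and 2.84 TPM in KO at D15. Both were lower in KO on both days, with less distance at D15. The log2 fold change of *Dazl* was −2.40 at D7 (standard error 0.12, FDR 9.66e-07 by limma) and −1.26 at D15 (FDR 4.92e-05). That of *Stra8* was −2.31 at D7 (standard error 0.13, FDR 1.76e-06 by limma) and −1.40 at D15 (FDR 4.16e-05).

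*Mael* and *Sycp3* were the other genes called in E8. *Mael* was at 20.3 and 18.8 TPM in wt and at 4.65 and 4.42 TPM in KO at D7, and at 22.5 and 23.8 TPM in wt and at 9.16 and 9.05 TPM in KO at D15. *Sycp3* was at 59.1 and 62.7 TPM in wt and at 16.6 and 16.4 TPM in KO at D7, and at 57.5 and 50.8 TPM in wt and at 38.8 and 42.1 TPM in KO at D15. For both the KO libraries were nearer wt at D15. *Mael* was called lower on both days (−1.89 and −1.26, FDR 6.24e-08 and 7.88e-07 by limma), and *Sycp3* at D7 (−1.82, FDR 2.03e-07) and not at D15, where −0.41 was under the 2-fold threshold at an FDR of 0.000874.

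The remaining tested genes had smaller differences in the same direction. *Ddx4* was at 10.4 and 10.4 TPM in wt and at 6.79 and 6.32 TPM in KO at D7, and at 11.7 and 10.6 TPM against 9.01 and 9.25 TPM at D15. *Stk31* was at 5.04 and 4.63 TPM in wt and at 2.26 and 2.09 TPM in KO at D7, and at 5.76 and 5.07 TPM against 3.75 and 4.15 TPM at D15. *Taf7l* was at 4.47 and 5.06 TPM in wt and at 3.72 and 3.98 TPM in KO at D7, and at 7.24 and 6.55 TPM against 3.72 and 4.37 TPM at D15. None of these groups overlapped, and the log2 fold changes, between −0.25 and −0.88, were all under 2-fold. *Stk31* at D7 passed the threshold with a pseudocount of 0.1 (−1.12) or with libraries rescaled to the same median (−1.05).

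Of the genes below the filter, *Tex101* was at 1.75 and 1.65 TPM in wt and at 0.463 and 0.635 TPM in KO at D7, and *Slc25a31* at 1.01 and 0.828 TPM against 0.464 and 0.424 TPM. At D15 *Tex101* was at 0.663 and 0.686 TPM in wt against 0.554 and 0.484 TPM, and *Slc25a31* at 0.796 and 0.648 TPM against 0.563 and 0.384 TPM. *Asz1* was at most 0.200 TPM in any E8 library and was listed at 0 in both KO libraries of D7 and in 1 wt library of D15. Across the E8 libraries only *Asz1* therefore overlapped between wt and KO, at D15.

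**Figure D2:**
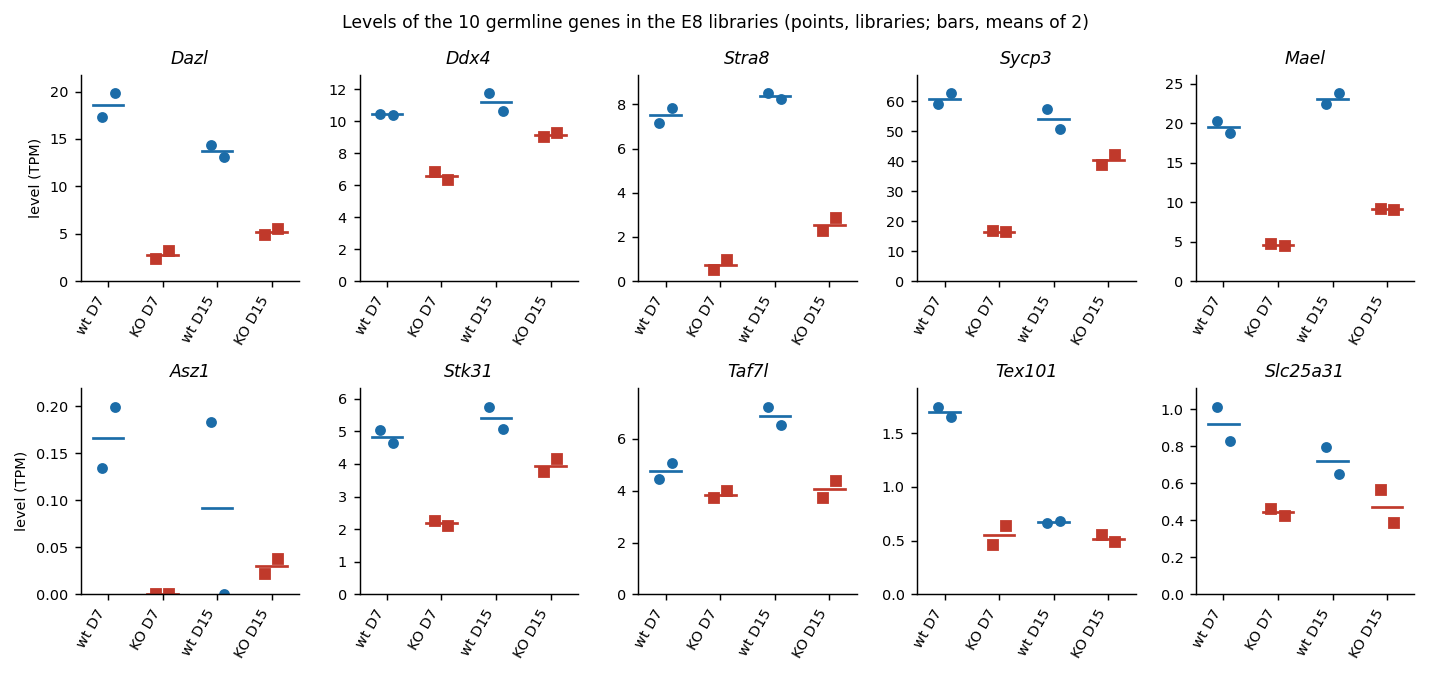
Level in TPM (linear axis from 0, own scale per gene) of each of the 10 genes in the 8 E8 libraries by group, with points for libraries and bars for means of 2. KO lies below wt for all 10 genes at D7, and *Sycp3* in KO rises from 16.6 and 16.4 TPM at D7 to 38.8 and 42.1 TPM at D15.

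At D15 in E8, 3 of the 7 tested genes were called lower (3.08% of all genes tested), *Stra8*, *Dazl* and *Mael*, and none higher (7.67% of all). For 9 of the 10 genes both KO libraries were below both wt libraries (35.2% of all genes tested, with 52% above). Between D7 and D15 none of the 7 was called in wt by limma (1.41% of all genes tested in either direction). An unadjusted p under 0.05 by limma was found for 4 of the 7 and for 7091 of all 12452 genes, a similar share. In KO *Sycp3* (1.24) and *Stra8* (1.05) were called higher at D15 (3.41% of all genes) and none lower (2.7%). In all, 7 of the 10 were higher in both D15 libraries than in both D7 libraries (42.1% of all genes tested), which adds *Dazl*, *Ddx4*, *Mael*, *Asz1* and *Stk31* without a call. *Asz1*, which was not among the genes tested, went only from 0 TPM in both libraries to 0.0219 and 0.0382 TPM. The interaction of KO and day was called for *Dazl* (1.15, FDR 0.000921 by limma) and *Sycp3* (1.41, FDR 2.23e-05), where 3.89% of all genes were called positive and 3.36% negative. The *Stra8* call between days was lost without KO D7 replicate 1 (0.87) or KO D15 replicate 2 (0.94), and the *Dazl* interaction without KO D7 replicate 1 (0.98).

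Pluripotency markers in E8 were lower in KO alongside the germline genes. Their sum was 13839 and 13900 TPM in wt and 5071 and 4942 TPM in KO at D7, and 17389 and 18241 TPM in wt and 8495 and 8286 TPM in KO at D15. Of the 11 markers 5 were called lower in KO at D7 (6.18% of all genes tested) and 1, *Dppa5a*, at D15 (3.08% of all). The visceral endoderm sum was 13.7 and 12.7 TPM in wt and 1109 and 1111 TPM in KO at D7, and 6.87 and 7.39 TPM against 238 and 237 TPM at D15. Of the 7 visceral endoderm markers all were called higher in KO on both days, and of the 6 fibroblast markers tested 5 were called higher and 1 lower. Of all genes tested 11.4% were called higher and 6.18% lower at D7, and 7.67% and 3.08% at D15. Without *Dppa5a* the pluripotency sum was 4986 and 4814 TPM in wt against 2452 and 2421 TPM in KO at D7, and 4938 and 5320 TPM against 3178 and 3172 TPM at D15. None of the 3 differentiated marker sums exceeded 34.0 TPM in any E8 wt library. The part of cell types in these levels was not tested.

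**Figure D3:**
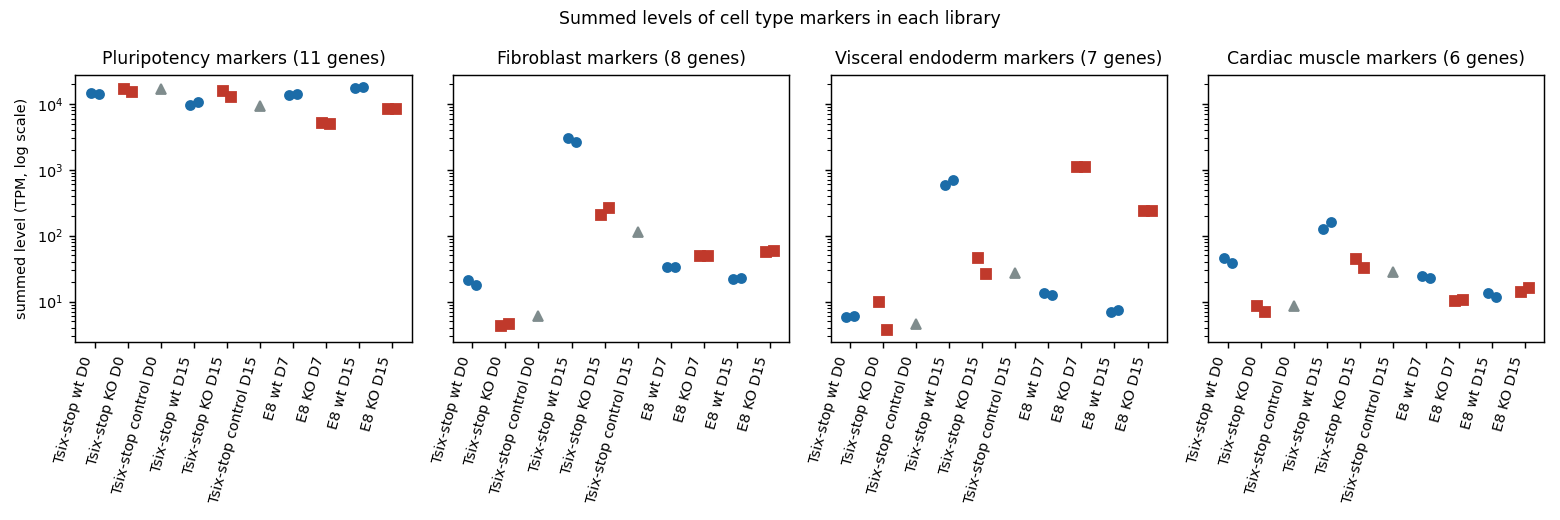
Summed TPM (log axis) of 11 pluripotency, 8 fibroblast, 7 visceral endoderm and 6 cardiac muscle markers in each of the 18 libraries by group. Fibroblast and visceral endoderm sums at D15 are highest in *Tsix*-stop wt, and the visceral endoderm sum in E8 is 237 to 1111 TPM in KO and at most 13.7 TPM in wt.

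The direction of the KO difference at D15 was opposite in the 2 lines for most of the genes. *Dazl*, *Ddx4*, *Sycp3*, *Mael*, *Stk31*, *Taf7l* and *Slc25a31* were higher in both *Tsix*-stop KO libraries and lower in both E8 KO libraries than in wt, which is 7 of 10 (19.6% of the 11956 genes tested in both lines), and 6 of these 7 were tested in both. The difference between lines was not tested, since the lines differ in unit and deletion. Their wt libraries of D15 were also unlike in cell type markers. Visceral endoderm markers summed to 6.87 and 7.39 TPM in E8 wt and to 590 and 698 TPM in *Tsix*-stop wt. Fibroblast markers summed to 21.7 and 23.1 TPM in E8 wt and to 2985 and 2649 TPM in *Tsix*-stop wt. *Thy1* alone gave 20.9 and 21.6 TPM of the E8 wt sums. Pluripotency markers without *Dppa5a* were at 4938 and 5320 TPM and at 4330 and 4807 TPM. *Stra8* was lower in KO in both lines and at each day measured, and was called in all 4 comparisons of KO with wt. In both lines it passed the filter only through its wt libraries, so it could enter these tests only as a gene high in wt. *Stra8* was the only one of the 7 tested genes called in all 4. In the CRISPR control *Stra8* was at 4.71 TPM at D0 and 3.29 TPM at D15, nearer the KO mean than the wt mean on both days. With the control added to wt it was not called on either day in *Tsix*-stop cells (FDR 0.294 and 0.195 by edgeR).

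Levels at D15 differed by gene between the lines. *Sycp3* was the highest of the 10 genes in every library of D15 in both lines, between 21.4 and 98.8 TPM in *Tsix*-stop wt and KO and between 38.8 and 57.5 TPM in E8. *Asz1* was the lowest in every E8 library and in *Tsix*-stop KO at D15. *Tex101* was at 2.77 to 5.92 TPM in *Tsix*-stop wt and KO at D15 and at 0.484 to 0.686 TPM in E8. TPM of *Tsix*-stop libraries was computed here from counts and exon lengths and that of E8 by the authors, so the 2 scales were set separately.

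**Figure D4:**
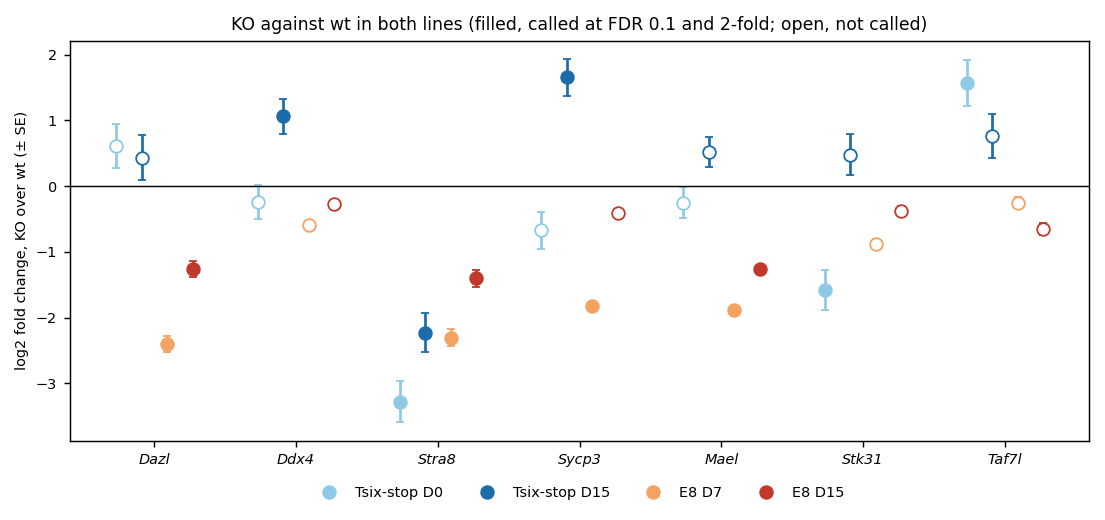
Log2 fold change of KO over wt with its standard error for the 7 tested genes at D0 and D15 in *Tsix*-stop cells (edgeR) and at D7 and D15 in E8 (limma on log2(TPM + 1)), with filled points for called genes. *Stra8* is called lower in all 4, and *Ddx4* and *Sycp3* are called higher only in *Tsix*-stop cells at D15.

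Reads with SNPs separated the alleles in *Tsix*-stop cells, with 9210225 to 12095548 such reads per library. *Stk31* had no *cast* read in any KO library, with 97 and 46 SNP reads at D0 and 22 and 24 at D15, which allow a *cast* share of up to 3.09%, 6.52%, 13.6% and 12.5%. In wt at D0 the non-*cast* share was 25.3% (95% Wilson interval 20.5 to 30.7%) and 26% (20.1 to 32.9%), and in the CRISPR control 26.7% (22.5 to 31.4%). The number of non-*cast* reads at D0 was 71 and 46 in wt and 97 and 46 in KO, so the lower *Stk31* level of KO at D0 went with missing *cast* reads. In wt at D15, where *Stk31* was low, 2 of 21 and 6 of 19 SNP reads were from *cast*. Intervals and limits cover counting error only.

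Genes around *Stk31* on chromosome 6 showed the same absence. Among genes within 5 Mb with at least 20 SNP reads, 26 of 33 and 31 of 38 had no *cast* read in the KO libraries at D0, and 27 of 33 and 27 of 36 at D15. In the wt libraries at most 1 of 35 to 42 such genes lacked *cast* reads, and in the CRISPR control none of 42 and 40. The median non-*cast* share of these neighbours was 100% in the 4 KO libraries and 54.9% to 66.1% in wt. *Stra8* and *Asz1* lie on the same chromosome, but the median non-*cast* share of the neighbours of *Stra8* was 50% to 57.9% in KO and 44.3% to 50.5% in wt, with *cast* reads for every such gene. At *Stk31* the KO difference thus cannot be told apart from the absence of *cast* reads over the whole neighbourhood, which both KO replicates share.

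The alleles of the remaining genes varied by gene. *Dazl* had a non-*cast* share of 34.1% and 31.1% in wt at D0 and of 26% and 27.2% in KO, on 357 to 1041 SNP reads, below the median of its neighbours, which was 46.0% to 49.2%. The share at D15 was 36.3% to 44.5% in the wt and KO libraries. *Ddx4* was at 44.4% to 53.5% in wt and KO on both days. *Stra8* was at 66.3% and 63.0% in wt at D0, on 252 and 162 reads, and in KO 25 of 27 and 14 of 19 SNP reads were not from *cast*. At D15 its share was 49.4% and 59.6% in wt and 60% and 56.7% in KO, the last on 30 reads each.

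*Mael* reads were mostly not from *cast* in every group, with 14 of 15 and 12 of 15 SNP reads in wt at D15, 25 of 25 and 14 of 16 in KO and 32 of 33 in the CRISPR control, while the median share of its neighbours was 48.2% to 52.4%. *Sycp3* had 35 of 52 and 77 of 124 SNP reads not from *cast* in KO at D15, 67.3% and 62.1%, and 14 of 18 and 8 of 8 in wt. X-linked *Taf7l* had 6 of 20 and 6 of 10 SNP reads not from *cast* in wt at D15 and 17 of 28 and 16 of 28 in KO. The median non-*cast* share of its neighbours was 28.6% and 31.7% in wt and 42.5% and 40.5% in KO, while it was 48.9% to 50.5% in all 4 libraries at D0. These shares were lower at D15 than at D0 in both genotypes, when the X not from *cast* becomes the inactive copy, and the read numbers of *Taf7l* itself are too low to place it against its neighbours. In E8, where the total of each allele column is fixed, levels within an allele can be set side by side: *Stra8* at D7 was at 3.62 and 4.94 TPM in wt and 0.121 and 0.291 TPM in KO on the BL6 allele, and at 7.12 and 14.1 TPM against 0.460 and 0.546 TPM on the *cast* allele. *Dazl* at D7 was lower in KO on both alleles too. It was at 1.62 and 2.23 TPM against 0.224 and 0.536 TPM for BL6. For *cast* it was at 10.9 and 14.1 TPM against 1.91 and 1.76 TPM. *Sycp3* and *Mael* at D7 were also lower on the BL6 allele and at 0 TPM for *cast* in both KO libraries. X-linked *Taf7l* was at 0 TPM for *cast* in every KO library. In wt its *cast* values were 0 and 1.76 TPM at D7 and 2.16 and 1.30 TPM at D15. Its BL6 values were 0.726 and 0.406 TPM in wt and 0.965 and 0.734 TPM in KO at D7. At D15 they were 0.787 and 1.01 TPM against 0.671 and 0.940 TPM. Loss of the *cast* allele was not tested.

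**Figure D5:**
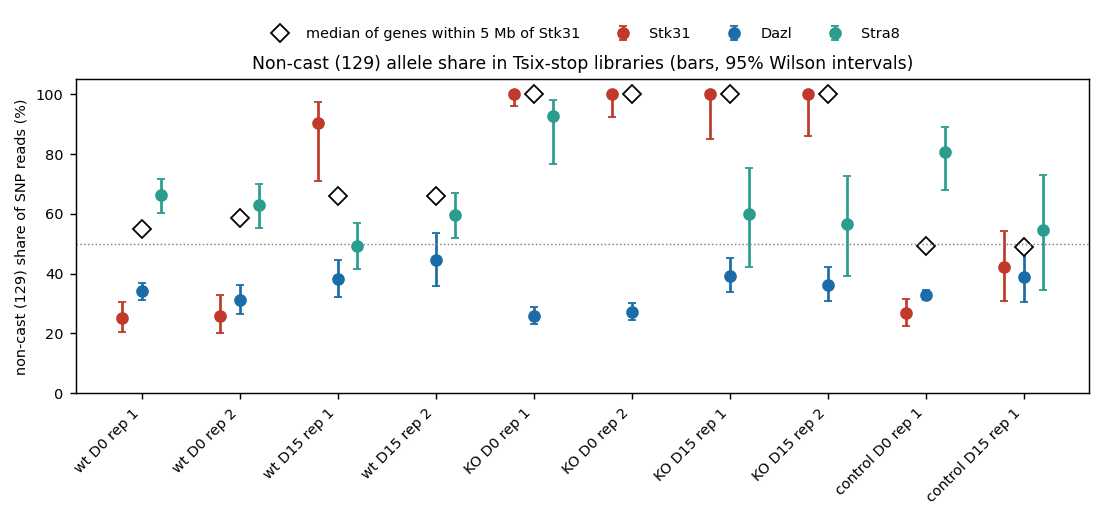
Non-*cast* share of SNP reads in percent for *Stk31*, *Dazl* and *Stra8* in each *Tsix*-stop library with at least 20 SNP reads (bars, 95% Wilson intervals), and the median share of genes within 5 Mb of *Stk31* (diamonds). *Stk31* and its neighbours are at 100% in the 4 KO libraries, while *Dazl* stays between 26% and 44.5%.

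Other germline genes, in lists by function, were counted in the same comparisons. These lists were chosen with earlier results of these data known, so their counts are not independent support. Of 25 other meiosis genes 18 were tested in *Tsix*-stop cells, and at D15 6 were called higher in KO (3.89% of all genes tested) and none lower (11% of all), with a median log2 fold change of 0.55. These included *Tex11* (2.04), *Tex15* (2.01), *Sycp2* (1.89) and *Hormad1* (1.72), which act in synapsis and recombination. In the CRISPR control at D15 these named genes were at 5.94, 4.90, 2.16 and 13.3 TPM, above both wt libraries for each gene. At D0 *Rec8*, the meiotic cohesin subunit, was called higher (1.53) and *Smc1b*, another, lower (−1.61), 1 of 18 each, where 3.09% and 4.98% of all genes were. In the control at D0 *Rec8* was at 23.3 TPM, above both KO libraries, and *Smc1b* at 15.7 TPM, between the wt libraries. In E8 at D7, 9 of 17 tested were called lower (6.18% of all genes) and 1 higher (11.4%), with a median of −1.06, among them *Smc1b* (−1.93), *Sycp1* (−1.76), *Hormad1* (−1.64) and *Tex11* (−1.60). At D15 5 were called lower (3.08% of all genes) and 2 higher (7.67%), with *Rec8* at 1.26.

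Of 18 other piRNA pathway genes 13 were tested in *Tsix*-stop cells, and 4 were called higher and none lower at D15 (3.89% and 11% of all genes), with a median of 0.78. They were the Tudor domain genes *Tdrd12* (1.55), *Rnf17* (1.27) and *Tdrd1* (1.22) and the co-chaperone gene *Fkbp6* (1.37). In the CRISPR control at D15 they were at 36.5, 43.1, 3.19 and 38.9 TPM, above both wt libraries for each gene. *Tdrd12* was called lower in KO at D0 (−1.21, 1 of 13 where 4.98% of all genes were), so its direction also turned over between days. The control at D0 was at 46.7 TPM for *Tdrd12*, against 39.5 and 38.3 TPM in KO and 79.1 and 86.8 TPM in wt. In E8 at D7 6 of 12 were called lower and 1 higher (6.18% and 11.4% of all genes), with a median of −1.01, with *Fkbp6* at −2.48, *Tdrd12* at −2.25 and the PIWI gene *Piwil1* at −1.92. At D15 3 of 12 were called lower (3.08% of all genes) and 1, *Tdrd5* (1.89), was called higher (7.67% of all).

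Among 11 germ cell development genes 6 were tested in *Tsix*-stop cells, and at D15 *Dnd1* (2.14), *Prdm1* (1.54) and *Dppa3* (1.45) were called higher in KO and none lower, where 3.89% and 11% of all genes were. In the CRISPR control at D15 these genes were at 70.1, 22.3 and 327 TPM, above both wt libraries for each gene. At D0 *Prdm1* (−1.69) and *Dppa3* (−1.12) were called lower, 2 of 6 where 4.98% of all genes were. The control at D0 was below both wt libraries for both, at 5.48 TPM for *Prdm1* and 78.4 TPM for *Dppa3*. In E8 at D7 4 of 7 were called lower (6.18% of all genes), led by the oogenesis and spermatogenesis factor *Sohlh2* (−3.03). At D15 *Sohlh2* was called lower (−1.91) and *Dnd1* higher (1.19), 1 of 7 each, where 3.08% and 7.67% of all genes were. Of 9 further testis genes with methylated promoters, 1 of 7 tested was called in *Tsix*-stop cells at D15, *Tex19.1*, higher (1.07, where 3.89% of all genes were), and none at D0. In E8 at D7 4 of 6 were called lower (6.18% of all genes), *Tuba3a* (−2.57), *Tuba3b* (−2.29), *Rpl10l* (−1.90) and *Dpep3* (−1.90), with *Tuba3a* and *Tuba3b* near-identical copies that share reads. At D15 1 of 6 was called lower (3.08% of all genes), *Rpl10l* (−1.15). *Dppa3* and *Prdm1* are also active in pluripotent or endodermal cells and not in germ cells alone.

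The machinery that silences germline genes was counted in 3 lists, also chosen with earlier results of these data known. Of the 8 DNA methylation enzymes, all tested, the de novo methylation genes *Dnmt3l* (−1.89, FDR 0.00848 by edgeR) and *Dnmt3a* (−1.64, FDR 0.00549) were called lower in *Tsix*-stop KO at D0, which is 2 of 8 where 4.98% of all genes were. *Dnmt3l* was at 8.96 and 21.2 TPM in KO, 45.8 and 57.6 TPM in wt and 7.47 TPM in the CRISPR control at D0. *Dnmt3a* was at 20.9 and 13 TPM in KO, 45.1 and 53 TPM in wt and 23.7 TPM in the CRISPR control. The control, labelled a negative control, was thus below both wt libraries for both genes. At D15 only *Tet3* (−1.18) was called, lower, 1 of 8 where 11% of all genes were. *Dnmt3l* was then at 606 and 578 TPM in KO and 314 and 328 TPM in wt. In E8 the demethylase gene *Tet1* was called lower at D7 and D15 (−1.0 and −1.02), and *Dnmt3a* at D15 (−1.20). That is 1 and 2 of 8, where 6.18% and 3.08% of all genes were. None of the 14 PRC1.6 subunit genes was called in any of the 4 comparisons of KO with wt by edgeR or limma, or by DESeq2 in *Tsix*-stop cells. An unadjusted p under 0.05 was found for 3 and 7 of them at D0 and D15 in *Tsix*-stop cells (edgeR). In E8 it was found for 10 and 11 at D7 and D15 (limma). Such p-values were common among all genes tested, with 3772 and 6033 of 13121 in *Tsix*-stop cells and 10222 and 9376 of 12452 in E8. Of 6 H3K9 methylation factors the X-linked *Suv39h1* was called, higher in E8 KO at D7 and D15 (2.07 and 1.43), where 11.4% and 7.67% of all genes were. None was called in *Tsix*-stop cells by edgeR or DESeq2. There 2 of 6 had an unadjusted p under 0.05 by edgeR on each day, beside the 3772 and 6033 of all 13121 genes.

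Across the 10 *Tsix*-stop libraries the 7 tested genes did not vary as a single group. Pearson's r of log2 CPM was 0.93 between *Sycp3* and *Mael*, 0.88 between *Ddx4* and *Sycp3* and 0.82 between *Ddx4* and *Mael*, 0.74 between *Dazl* and *Stk31*, and −0.74 between *Dazl* and *Mael*. The libraries share day and genotype, so these values describe group means and not separate variation. They include the unreplicated CRISPR control, whose *Dazl* (424 CPM) and *Taf7l* (13.7 CPM) at D0 lay above all other *Tsix*-stop libraries. The weight of this library in r was not tested. The genes whose levels were most like that of *Dazl* were *Tmem19* (r of 0.97), *Fam120c* (0.96) and *4930550L24Rik* (0.96). For *Stra8* they were *P4ha3* (0.97), *Rnf19b* (0.96) and *Edc4* (0.96), and for *Taf7l* *Hectd2* (0.96), the PIWI gene *Piwil2* (0.94) and *Entpd6* (0.93).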

How the data were processed

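RNA was measured in 18 libraries (TruSeq V2 kit, single-end reads). Reads were mapped with TopHat2 2.1.1 and Bowtie2 2.4.5 on mm10 per the submitters' processing notes, and the annotation and strand setting are not given in the sources used here. *Tsix*-stop cells are a cross of 129 and *cast*, so the non-*cast* allele is 129. Their deposited values are estimated counts of each gene by the authors on the 129 genome, of which 7.10% were not whole, and these were rounded. For E8 the authors deposited TPM, and symbols listed more than once (537) were summed. Allele columns hold SNP reads, as deposited counts for *Tsix*-stop and as TPM for E8.

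TPM of *Tsix*-stop libraries was derived from these counts and each gene's summed exon length, matched by symbol for 23976 of 24346 genes (666 through synonyms). Counts were tested with edgeR 4.0.16 (TMM, quasi-likelihood, 8 wt and KO libraries in 1 fit) and E8 with limma 3.58.1 (trend, log2(TPM + 1), 8 libraries in 1 fit), R 4.3.3. Genes needed 2.5 CPM or TPM in 2 libraries, and calls an FDR of at most 0.1 and a fold of at least 2. The steps were tested on simulated data. Depth per *Tsix*-stop library was 51091152 to 68796179 counts. Reads carry no molecular identifiers, so intervals cover counting error only.

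The 10 genes and the lists of other meiosis, piRNA pathway, germ cell development, testis, DNA methylation, PRC1.6, H3K9 methylation and cell type marker genes were chosen with earlier results of these data known. Named are all 10 genes, and of each list at most the 4 called genes with the largest change per comparison. The 3 genes most like *Dazl*, *Stra8* and *Taf7l* were those with the highest Pearson's r. Promoter windows are RefSeq's on GRCm38.p6. Alternatives were no filter, other normalizations, DESeq2 1.42.0, the count on the *cast* genome, other pseudocounts, a replicate block, the CRISPR control added to wt, and leaving out each library.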

Additional observations from a re-analysis of the deposited data

Results flagged for a closer look

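For 6 results the interaction of KO and day was called, so that the difference between KO and wt was not the same on the 2 days. In *Tsix*-stop cells (edgeR) the log2 interaction was 2.33 for *Sycp3*, 2.06 for *Stk31*, 1.30 for *Ddx4* and 1.05 for *Stra8*. In E8 (limma, on log2(TPM + 1)) it was 1.41 for *Sycp3* and 1.15 for *Dazl*. *Sycp3* was the only gene among the 7 tested with a called interaction in both lines. *Stk31* and most genes within 5 Mb of it had no *cast* read in the *Tsix*-stop KO libraries. Its differences between KO and wt in that line cannot be told apart from this absence.

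At D15, 7 genes were higher in both *Tsix*-stop KO libraries than in wt and lower in both E8 KO libraries than in wt, and this difference between lines was not tested. The wt libraries of D15 were unlike between the lines in sums of cell type markers. On the log2 scale of the mean TPM, KO over wt was 1.64 in *Tsix*-stop and −0.42 in E8 for *Sycp3*, and 1.05 and −0.29 for *Ddx4*. For *Slc25a31* the values were 0.91 and −0.61, for *Taf7l* 0.75 and −0.77, and for *Mael* 0.51 and −1.34. *Stk31* gave 0.47 and −0.46, and *Dazl* 0.42 and −1.41.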

How the results depend on the processing

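Of 1050 log2 fold changes of the 7 tested genes under alternative settings, 999 kept their direction and side of the threshold, 28 lost the call, 12 gained it and 11 turned direction. With the CRISPR control added to wt, 0 of the 7 were called between KO and wt at D0, at D15 and in the interaction by edgeR. In that setting *Dazl* turned to −0.80 at D0 and 1.40 in the interaction, *Taf7l* to −0.21 at D0, −0.038 between days in wt and 0.77 in the interaction, and *Stk31* to −0.35 at D15, while *Stra8* (−2.83 at D0, −1.75 at D15), *Stk31* (−1.86 at D0) and *Sycp3* (1.02 at D15, 1.84 in the interaction) kept their direction past 2-fold. Among all genes the calls then numbered 20 at D0 (1059 without the control), 1115 at D15 (1948) and 564 in the interaction (2243).

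Leaving out each library in turn, 2 to 4 of the 7 were called in the *Tsix*-stop interaction (2 without wt D15 replicate 2), 1 to 2 between days in E8 KO and 1 to 3 in the E8 interaction. The called members numbered 2 to 4 at D0 and 2 to 3 at D15 in *Tsix*-stop, and 4 and 3 throughout at D7 and D15 in E8. *Ddx4* ranged from −0.55 to 0.14 at D0 and from −0.23 to 0.46 between days in wt, and the *Dazl* interaction from −0.93 to 0.31 (0.056 without wt D15 replicate 1). *Taf7l* between days in E8 KO ranged from −0.038 to 0.15. In *Tsix*-stop wt between days, *Mael* was 0.94 without wt D0 replicate 2, and *Sycp3* was called without wt D0 replicate 1 (1.24) or wt D15 replicate 2 (1.36). Without KO D0 replicate 1, *Stk31* in KO was −0.97 and *Stra8* 1.19 (called), and the *Ddx4* interaction was 0.92 without wt D0 replicate 2.

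With no filter on low counts 1738 genes were called at D0, 3099 at D15, 7713 between days in wt (4987 with the filter) and 5665 in KO (3618). With a pseudocount of 0.1, 332 genes were called between days in E8 wt (175 with 1). The replicate block left the number of called members at 3, 3, 4, 5 and 4 in the *Tsix*-stop comparisons and at 4, 3, 0, 2 and 2 in E8. The crossed pairing, chosen after seeing the data, gave the same numbers. Deviations of samples with the same number correlated between −0.162 and 0.198 over genes in the 12 pairs of groups, highest between *Tsix*-stop KO at D0 and D15, and no source used here ties the numbers. In *Tsix*-stop KO, replicate 2 had the lower *Kdm6a* level on both days, and whether KO libraries of 1 number are the same clone was not tested. Depth of E8 is unknown, and *Asz1*, *Tex101* and *Slc25a31* lie too low to test in either line.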
